A study of Mus musculus with 9 samples.

Results

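The genes described here encode the nuclear subunits of respiratory complexes II, III and IV, of cytochrome c and of ATP synthase. They were chosen by gene symbol (Sdha to Sdhd, Uqcr genes, Cyc1, Cycs, the genes from Cox4 to Cox8, and Atp5 genes), without pseudogenes, and make up 51 of the 56691 genes in each table. Mouse pluripotent stem cells (PSCs) of the BVSC line, which carries Blimp1-mVenus and Stella-CFP reporters, were differentiated as embryoid bodies. Cells with (BV+) and without (BV−) the Blimp1 reporter were then separated by flow cytometry, and their poly(A) RNA was sequenced. In both populations, a p20 vector with an Nrf1 cDNA (NRF1 OE) was compared with the empty p20 vector (Ctrl), and doxycycline (DOX) at 1.5 μg/mL was given from day 2 to day 5 in all groups. There were 2 libraries of BV+ cells with NRF1 OE, 2 of BV+ cells with Ctrl, 3 of BV− cells with NRF1 OE and 2 of BV− cells with Ctrl, 9 in all. The methods call the replicates biological, but neither they nor the labels say whether libraries of a group came from separate cultures, so p-values measure only the spread between these libraries, which may be technical.

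Complex II oxidises succinate, complex III passes electrons from ubiquinol to cytochrome c, and complex IV hands them to oxygen. Complexes III and IV pump protons across the inner mitochondrial membrane, and ATP synthase uses the returning protons to make ATP. Complex II is encoded wholly in the nucleus, whereas complexes III and IV and ATP synthase also hold subunits of the mitochondrial genome. NRF1 is a transcription factor that was found through the cytochrome c promoter and is known to bind promoters of many of these genes.

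The proximal promoters of the members were searched for short motifs, and the stretches that hold an NRF1-like motif are shown for members that rose with NRF1 OE in BV− cells and for 2 that did not pass the main test. The windows came from RefSeq (GRCm38.p6) and run from 250 bases before to 50 bases after the start of a gene, whereas the read counts were made on GRCm39. A window was found for 37 of the 50 member symbols, with 40 windows in all. The motif GCGCANGCG, searched on both strands, was present in 13 of the 40 windows (32.5%) and in 6.25% of all 32851 windows. In the stretches below, capitals mark this motif. They lie at chr10:80406802-80406842, minus strand (Uqcr11), chr9:108936638-108936678, plus strand (Uqcrc1), chr2:10080425-10080465, minus strand (Atp5c1), chr16:91931596-91931636, minus strand (Atp5o), chr13:74350314-74350354, minus strand (Sdha) and chr6:50566606-50566646, minus strand (Cycs).
Uqcr11: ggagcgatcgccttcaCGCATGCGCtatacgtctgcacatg
Uqcrc1: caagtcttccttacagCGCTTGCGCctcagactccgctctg
Atp5c1: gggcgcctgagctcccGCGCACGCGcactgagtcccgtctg
Atp5o: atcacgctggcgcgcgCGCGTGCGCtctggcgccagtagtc
Sdha: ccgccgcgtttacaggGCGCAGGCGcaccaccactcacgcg
Cycs: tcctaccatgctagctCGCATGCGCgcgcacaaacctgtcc

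Atp5e and Cox7a2 had the highest fold changes in BV+ cells among the members that passed the test, and their whole windows are shown for this reason. Neither holds the letters GCGCANGCG on either strand. Capitals mark the letters CCGGAAG, as bound by ETS factors such as GABP, and GGGCGG, as bound by SP1, on both strands. The Atp5e window (chr2:174464052-174464351, minus strand) holds 1 of the former and 2 of the latter, and the Cox7a2 window (chr9:79759804-79760103, minus strand) holds 1 of the latter.
Atp5e: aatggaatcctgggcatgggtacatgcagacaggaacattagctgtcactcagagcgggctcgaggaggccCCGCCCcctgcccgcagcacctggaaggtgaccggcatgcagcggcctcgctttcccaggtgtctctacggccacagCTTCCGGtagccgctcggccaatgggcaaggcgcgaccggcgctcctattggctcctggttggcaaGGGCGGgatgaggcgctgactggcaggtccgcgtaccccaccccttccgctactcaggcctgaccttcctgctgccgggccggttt
Cox7a2: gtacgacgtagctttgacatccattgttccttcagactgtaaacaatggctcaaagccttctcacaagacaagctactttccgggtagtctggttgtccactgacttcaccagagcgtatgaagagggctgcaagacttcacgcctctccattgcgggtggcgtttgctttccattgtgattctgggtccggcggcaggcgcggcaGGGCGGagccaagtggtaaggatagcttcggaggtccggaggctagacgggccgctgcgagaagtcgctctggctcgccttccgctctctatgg
Over all members with a window, CCGGAAG was present in 13 of 40 windows (32.5%) against 8.86% of all windows, and GGGCGG in 15 of 40 (37.5%) against 35.7%. The letters AAGATGGCG, as bound by YY1, were present in 2 of 40 (Atp5j and Atp5j2), against 1.40%. These matches describe letters only.

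Total counts ranged from 13702162 to 19625460 per library, and 48 of the 51 members passed the filter on low counts. Nrf1 had 95.7 and 99.4 CPM (counts scaled to the size of the library with TMM factors) in the BV+ libraries labelled NRF1 OE and 91.1 and 90.4 CPM with Ctrl (adjusted p = 0.489, edgeR). In BV− cells it had 119, 122 and 126 CPM with NRF1 OE against 99.1 and 105 CPM with Ctrl (adjusted p = 0.0718). NRF1 OE libraries were above Ctrl libraries in both populations without passing the test, and whether the vector's cDNA was counted fully is not given. Nrf1 was lower in BV+ than in BV− cells with NRF1 OE (log2 fold change -0.33 ± 0.10 (SE), adjusted p = 0.0431, edgeR). With Ctrl this difference was not called (log2 fold change -0.17, adjusted p = 0.819). Prdm1, the gene of the BV reporter, lay between 42.4 and 62.8 CPM in all 9 libraries. The summed level of the 8 germ cell markers was 408 to 409.5 CPM in BV+ and 454 to 547 CPM in BV− cells with NRF1 OE, compared with 370.1 to 376 and 387 to 394 CPM with Ctrl. Between NRF1 OE and Ctrl, 2 of these 8 were higher in BV+ cells and 5 in BV− cells, and 0 were lower (edgeR, adjusted p under 0.05). With NRF1 OE, 3 were lower in BV+ than in BV− cells (Dppa3, Tfap2c and Nanos3) and Itgb3 was higher (log2 fold change 1.24, adjusted p = 9.12e-05), so the list did not separate the populations in 1 direction. Of the 6 pluripotency markers, with summed levels of at least 2209 CPM, Zfp42 and Klf4 were lower with NRF1 OE in both populations and Esrrb was higher in BV− cells, while Pou5f1 and Esrrb were lower in BV+ than in BV− cells with NRF1 OE. The summed levels of the mesoderm and neuroectoderm markers were 20.2 to 30.8 and 110.3 to 162 CPM in BV+ cells with NRF1 OE, against 2.19 to 2.43 and 37.3 to 47.7 CPM in BV− cells. With Ctrl they were 9.17 to 10.4 and 64.4 to 71 CPM in BV+ cells and 2.39 to 3.52 and 29.6 to 38.5 CPM in BV− cells. Of the 3 tested markers in each of these lists, 2 were higher in BV+ than in BV− cells with NRF1 OE and 1 with Ctrl (Kdr and Nes), and only Kdr and Nes were called between NRF1 OE and Ctrl, in BV+ cells (log2 fold changes of 1.49 and 1.60). The summed level of 4 muscle markers was 28.7 to 32.8 CPM with NRF1 OE against 17.8 to 18.4 CPM with Ctrl in BV+ cells and 24.2 to 37.4 against 16.6 to 20.1 CPM in BV− cells. Of the 3 tested, Actc1 was higher with NRF1 OE in both populations (log2 fold changes of 0.85 and 1.07), whereas Myh6 (0.65 and -0.37) and Tnnt2 (0.61 and 0.96) were not called. They were higher in BV+ than in BV− cells with NRF1 OE, Tnnt2 also with Ctrl. The summed level of 5 endoderm markers was 10.7 to 13.2 CPM with NRF1 OE against 14.7 to 17.2 CPM with Ctrl in BV+ cells, with 0 called, and 11.3 to 21.1 against 19.9 to 21.3 CPM in BV− cells, where Gata6 was lower (log2 fold change -1.08), and Afp was lower in BV+ than in BV− cells with NRF1 OE (log2 fold change -1.56). The part of these markers in the members' values was not tested. The populations are therefore named by their reporter only. In such bulk samples, fewer cells of a type and less RNA per cell cannot be told apart.

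All subunits of the ubiquitous enzymes were transcribed in every library, at levels that differed widely between genes. Levels between genes are given in FPKM, which are per length, as the mean over all 9 libraries. Atp5b, the catalytic β subunit of ATP synthase, was the highest at 527 FPKM (436 to 675 over the libraries). Cox4i1, the broadly expressed isoform of subunit 4 of complex IV, followed at 442 FPKM (314 to 687), and Atp5a1, the α subunit, at 406 FPKM (353 to 485). The ranges of these 3 genes overlapped. The highest member of complex III was Uqcr10 at 151 FPKM, and that of complex II was Sdhd, a membrane anchor, at 93.0 FPKM. Cycs, which encodes the electron carrier cytochrome c, was at 6.12 FPKM (5.31 to 7.46). Among the 3 genes for the c ring of ATP synthase, which encode the same mature protein, Atp5g3 was at 141 FPKM, Atp5g1 at 8.23 and Atp5g2 at 3.33, and their ranges did not overlap. These values depend on the lengths implied by counts and FPKM, which were 2181, 4913 and 1673 bases in this order. In CPM (counts not divided by length) the order was the same, at 255 to 406, 30.1 to 54.9 and 4.11 to 7.01, but Atp5g1 lay less far below Atp5g3. Many of these genes have processed pseudogenes, and how reads that map to several places were counted is not given, so levels of single genes are uncertain to that extent.

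Of the 8 isoforms that are restricted to some tissues or duplicate another gene, 6 passed the filter. Cox6b2, known from testis, was the highest at 28.7 FPKM. Cox7a1, the muscle and heart isoform, was at 4.94 FPKM, Cox4i2 at 0.416 FPKM and Cox8c at 0.867 FPKM. The muscle isoforms Cox8b and Cox6a2 were left out of the tests with at most 1 and 2 counts in a library, respectively. A second identifier named Atp5o had 0 counts in all libraries.

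**Figure D1:**
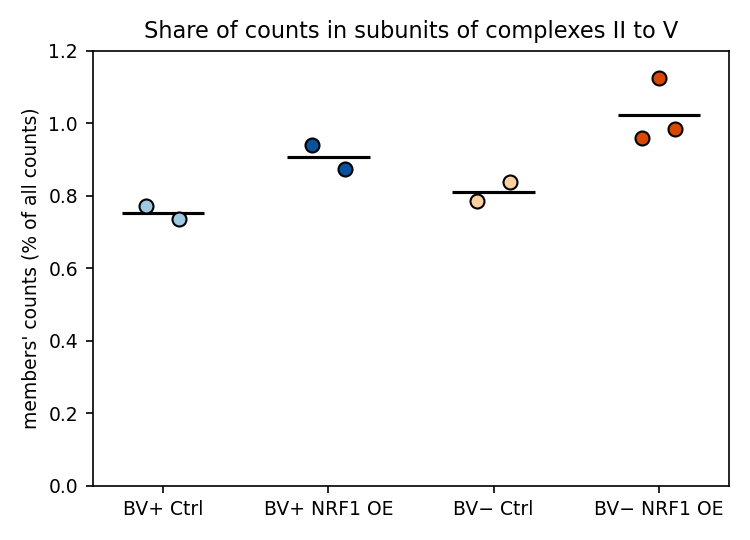
Share of all counts that fell on the members (vertical axis, %) in each library (points), with the mean of each group (line), for the 4 groups. NRF1 OE libraries lay between 0.874% and 1.13%, and Ctrl libraries between 0.736% and 0.837%.

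With NRF1 OE, the members took a larger share of the counts. In BV+ cells the share was 0.941% and 0.874% in the NRF1 OE libraries, compared with 0.770% and 0.736% in the Ctrl libraries. In BV− cells it was 0.959%, 1.13% and 0.985% with NRF1 OE, against 0.786% and 0.837% with Ctrl. No NRF1 OE library overlapped with a Ctrl library, and the highest share was that of replicate 2 of BV− cells with NRF1 OE. The same library was the highest of the 9 for 30 of the 48 tested members.

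**Figure D2:**
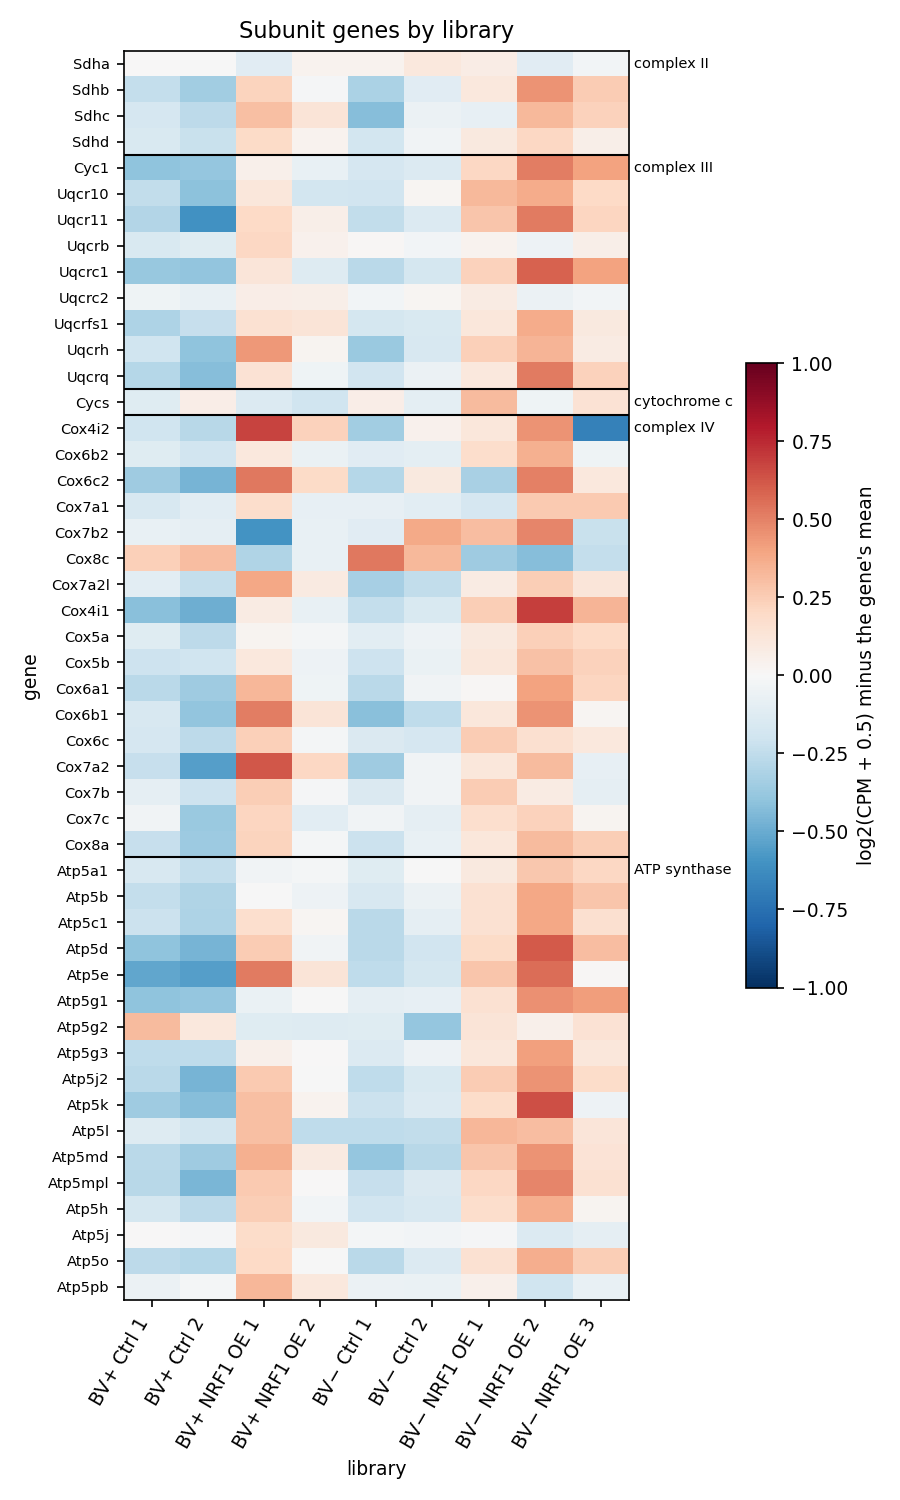
Deviation of each tested member (rows, grouped by complex) from its own mean, as log2(CPM + 0.5), in each of the 9 libraries (columns). Colours run from −1 (blue) to 1 (red). Most members were lower in the 4 Ctrl libraries than in the 5 NRF1 OE libraries, while Sdha, Uqcrc2, Atp5j and Cycs showed little of this.

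In BV+ cells, 6 of the 48 members were higher with NRF1 OE than with Ctrl (12.5%), against 6.24% of all 16903 genes tested, at an adjusted p under 0.05 (edgeR's quasi-likelihood F test, Benjamini-Hochberg adjustment over all genes). These were Atp5e, Cox7a2, Uqcr11, Atp5d, Atp5md and Atp5j2. No member was lower, against 1.78% of all genes, although 32 members had an unadjusted p under 0.05 in either direction (66.7%), against 32.5% of all genes, and DESeq2 called 16 members higher and 0 lower, against 8.9% and 3.56% of all genes. The median log2 fold change was 0.36 over the members and 0.04 over all genes, and 43 of 48 members had a positive value against 52.8% of all genes. Every NRF1 OE library was above every Ctrl library for 41 members (85.4%), against 38.1% of all genes, and below for 3 (Atp5g2, Cox8c and Cycs; 6.25%), against 32%. The number of calls moved with single libraries, over all genes as over the members: 0 members and 0% of all genes were called without replicate 1 of BV+ cells with NRF1 OE, or without either BV+ Ctrl library, and 27 members were called without replicate 2 of BV− cells with NRF1 OE, where 29.4% of all genes were called. The count was 14 without replicate 2 of BV+ cells with NRF1 OE (11.5% of all genes), 17 without replicate 1 of BV− cells with NRF1 OE (14%), and 2 without replicate 3 of that group (3.94%) or without either BV− Ctrl library (3.01% and 5.04%).

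Atp5e encodes the ε subunit in the central stalk of ATP synthase. It had 73.6 and 55.9 CPM with NRF1 OE against 35.5 and 34.6 CPM with Ctrl in BV+ cells (log2 fold change 0.89 ± 0.18 (SE), adjusted p = 0.0226). Both NRF1 OE libraries were above both Ctrl libraries, and replicate 1 was the higher. Over fits that leave out a library, the log2 fold change was 0.68 to 1.07. In BV− cells it had 61.9, 75.5 and 51.6 CPM with NRF1 OE against 42.9 and 45.1 CPM with Ctrl (log2 fold change 0.52 ± 0.17 (SE), adjusted p = 0.0518), with no overlap between the groups and no call. Its BV− value was 0.09 with offsets for GC content and length, described below (adjusted p = 0.651, edgeR).

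Cox7a2 encodes the broadly expressed isoform of subunit 7a of complex IV. It had 103 and 77.5 CPM with NRF1 OE against 57.0 and 45.6 CPM with Ctrl in BV+ cells (log2 fold change 0.82 ± 0.19 (SE), adjusted p = 0.0321), with no overlap. In BV− cells it had 72.5, 83.5 and 63.3 CPM with NRF1 OE against 52.2 and 65.5 CPM with Ctrl (log2 fold change 0.31 ± 0.17 (SE), adjusted p = 0.199), and there replicate 3 with NRF1 OE lay below replicate 2 with Ctrl. Over fits that leave out a library, the log2 fold change was 0.60 to 1.01 in BV+ and 0.16 to 0.47 in BV− cells. Between the populations, the NRF1 OE effect differed by 0.51 ± 0.25 (SE) for Cox7a2 (adjusted p = 0.935) and 0.37 ± 0.24 for Atp5e (adjusted p = 0.983), by the interaction term in edgeR.

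Uqcr11, a small subunit of complex III, had 67.4 and 61.3 CPM with NRF1 OE against 48.0 and 38.5 CPM with Ctrl in BV+ cells (log2 fold change 0.57 ± 0.15 (SE), adjusted p = 0.0411). Atp5d, the δ subunit of the central stalk, had 181 and 148 CPM with NRF1 OE against 114 and 109.5 CPM with Ctrl (log2 fold change 0.55 ± 0.15 (SE), adjusted p = 0.0466). Atp5md and Atp5j2 encode small subunits in the membrane part of ATP synthase. Atp5md had 76.8 and 63.7 CPM with NRF1 OE against 49.6 and 46.7 CPM with Ctrl (log2 fold change 0.55 ± 0.14 (SE), adjusted p = 0.0411), and Atp5j2 had 213 and 176 CPM with NRF1 OE against 146 and 128 CPM with Ctrl (log2 fold change 0.50 ± 0.13 (SE), adjusted p = 0.0455). In all 4 genes, the NRF1 OE and Ctrl libraries did not overlap. With offsets for GC content and length, described below, Atp5md and Atp5j2 kept their calls. Uqcr11 was then at 0.04 and Atp5d at 0.10, and both lost theirs.

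**Figure D3:**
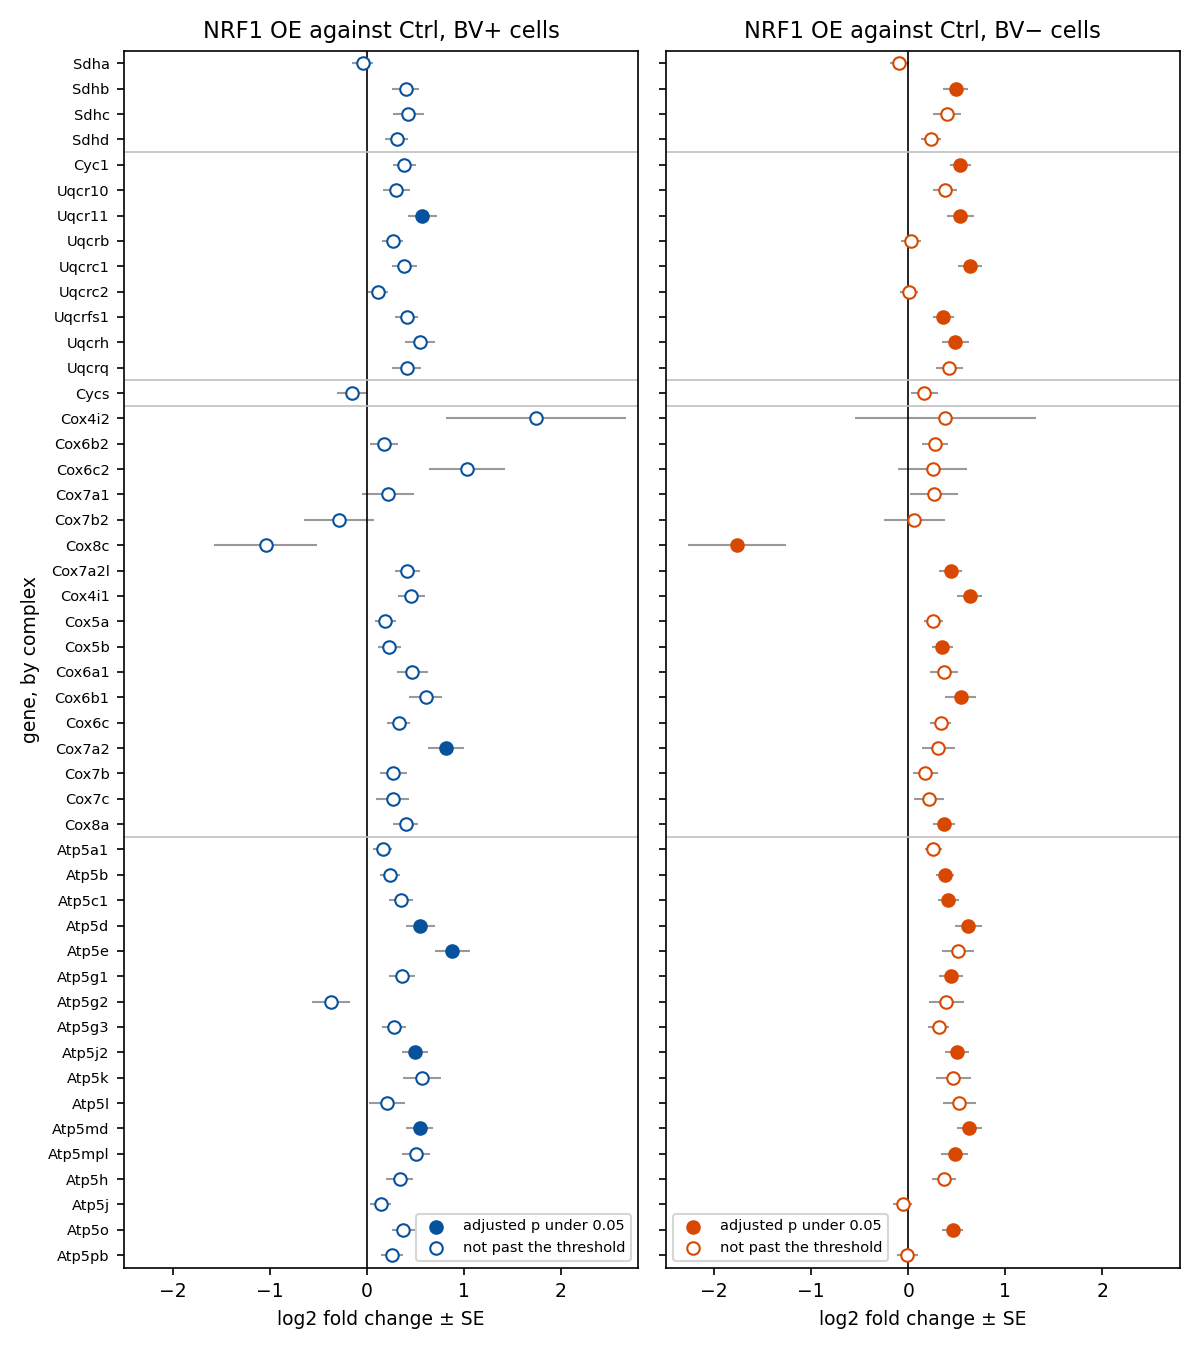
Log2 fold change between NRF1 OE and Ctrl (horizontal axis, ± SE) of each tested member (rows, by complex) in BV+ cells (left) and BV− cells (right). Filled points passed an adjusted p of 0.05 and open points did not. Most points lay to the right of 0 in both populations, with Cox8c the farthest to the left.

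In BV− cells, 19 of the 48 members rose with NRF1 OE (39.6%), against 10.2% of all genes, and 1 fell (2.08%), against 6.98%. The median log2 fold change was 0.37 over the members and 0.01 over all genes. Every NRF1 OE library was above every Ctrl library for 34 members (70.8%), against 29.4% of all genes, and below for Cox8c alone (2.08%), against 27.6%. The 20 calls were lost without replicate 3 of BV− cells with NRF1 OE and without any one of the 4 Ctrl libraries, where at most 0.207% of all genes were called, and 11 were made without replicate 2 of BV− cells with NRF1 OE, against 14.6% of all genes. The adjusted p of the 20 calls ran from 0.0317 to 0.0490. The fit of these groups alone called 0 members and 0% of all genes.

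Complex III had 5 of its 9 members among those that rose in BV− cells, against 10.2% of all genes. The median log2 fold change was 0.43 over its members and 0.01 over all genes. With offsets for GC content and length, described below, Uqcrc1 kept its call, and Cyc1, Uqcr11, Uqcrfs1 and Uqcrh lost theirs. Uqcrc1, a core protein, had 342, 439.5 and 385 CPM with NRF1 OE against 241 and 258 CPM with Ctrl (log2 fold change 0.64 ± 0.12 (SE), adjusted p = 0.0317). Cyc1, the cytochrome c1 subunit, had 262, 325 and 301 CPM with NRF1 OE against 202 and 206 CPM with Ctrl (log2 fold change 0.54 ± 0.11 (SE), adjusted p = 0.0317). The groups did not overlap in either gene, and replicate 2 with NRF1 OE was the highest in both. Uqcr11 had 71.4, 84.6 and 68.3 CPM with NRF1 OE against 49.6 and 53.4 CPM with Ctrl (log2 fold change 0.54 ± 0.14 (SE), adjusted p = 0.0348). Uqcrh, the hinge protein, and Uqcrfs1, the Rieske iron-sulfur protein, rose by 0.49 and 0.36 on the log2 scale. Uqcrc2, the other core protein, had 150.3, 137 and 139.8 CPM with NRF1 OE against 139.7 and 144 CPM with Ctrl (log2 fold change 0.00, adjusted p = 0.976), and its libraries overlapped, as did those of Uqcrb (log2 fold change 0.03).

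In complex IV, 4 of the 10 ubiquitous subunits rose (Cox4i1, Cox5b, Cox6b1 and Cox8a), against 10.2% of all genes. Cox7a2l, which takes part in joining complexes into supercomplexes, rose too. Cox4i1 had 793, 1076 and 846 CPM with NRF1 OE against 566 and 600.0 CPM with Ctrl (log2 fold change 0.63 ± 0.13 (SE), adjusted p = 0.0317). Cox6b1 had 123, 155 and 115 CPM with NRF1 OE against 84.9 and 95.1 CPM with Ctrl (log2 fold change 0.54 ± 0.16 (SE), adjusted p = 0.0424), and Cox7a2l had 105, 117 and 108 CPM with NRF1 OE against 78.5 and 83.7 CPM with Ctrl (log2 fold change 0.44 ± 0.12 (SE), adjusted p = 0.0374). Each of these 3 had all NRF1 OE libraries above both Ctrl libraries. Cox5b and Cox8a had log2 fold changes of 0.35 and 0.37, but of -0.05 and -0.23 with offsets for GC content and length, described below. Of the genes of complex IV that rose, Cox7a2l alone kept its call with the offsets. Cox8c, a restricted isoform, was the member that fell, with 3, 2 and 4 counts with NRF1 OE against 12 and 11 with Ctrl (log2 fold change -1.77 ± 0.51 (SE), adjusted p = 0.0410), so this call rests on a few reads.

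In ATP synthase, 8 of 17 members rose in BV− cells, against 10.2% of all genes. With offsets for GC content and length, described below, Atp5b, Atp5c1, Atp5g1 and Atp5md kept their calls. Atp5d, Atp5j2, Atp5mpl and Atp5o lost theirs. Of the head and central stalk, Atp5d had 173, 232 and 188 CPM with NRF1 OE against 125 and 132 CPM with Ctrl (log2 fold change 0.62 ± 0.14 (SE), adjusted p = 0.0317). Atp5b had 2454, 2887 and 2678 CPM with NRF1 OE against 1986 and 2126 CPM with Ctrl (log2 fold change 0.38 ± 0.09 (SE), adjusted p = 0.0337), and Atp5c1, the γ subunit, had 309, 363 and 310.0 CPM with NRF1 OE against 231 and 261 CPM with Ctrl (log2 fold change 0.41 ± 0.11 (SE), adjusted p = 0.0372). The groups did not overlap in these 3 genes. Of the membrane part, Atp5md had 72.6, 82.0 and 66.0 CPM with NRF1 OE against 45.7 and 49.3 CPM with Ctrl (log2 fold change 0.63 ± 0.13 (SE), adjusted p = 0.0317), and Atp5j2 and Atp5mpl rose by 0.50 and 0.48. Of the c ring, Atp5g1 rose by 0.44, and of the peripheral stalk, Atp5o, which confers the sensitivity to oligomycin, rose by 0.46. Atp5pb and Atp5j, also of the peripheral stalk, had log2 fold changes of -0.01 and -0.06 (adjusted p = 0.963 and 0.700), though Atp5pb was called higher in both populations with offsets for GC content and length, described below.

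In complex II, 1 of the 4 subunits was called in BV− cells, against 17.2% of all genes. Sdhb, its iron-sulfur subunit, had 131, 167 and 146 CPM with NRF1 OE against 98.1 and 113 CPM with Ctrl in BV− cells (log2 fold change 0.49 ± 0.13 (SE), adjusted p = 0.0362). This call was lost with offsets for GC content and length, described below (log2 fold change 0.16, adjusted p = 0.203, edgeR). Sdha, the flavoprotein that oxidises succinate, had 233, 204 and 217 CPM with NRF1 OE against 227 and 238 CPM with Ctrl (log2 fold change -0.09, adjusted p = 0.523), and 204 and 227 CPM with NRF1 OE against 222 and 221 CPM with Ctrl in BV+ cells, and its groups overlapped in both populations. Sdhc and Sdhd had log2 fold changes of 0.40 and 0.23 in BV− cells without a call. Cycs had 25.9, 20.1 and 23.0 CPM with NRF1 OE against 21.7 and 19.3 CPM with Ctrl in BV− cells (log2 fold change 0.17, adjusted p = 0.403), where the groups overlapped, and 18.8 and 18.0 CPM with NRF1 OE against 19.1 and 21.8 CPM with Ctrl in BV+ cells (log2 fold change -0.15, adjusted p = 0.506). With the offsets, Cycs was called in BV− cells at 0.55 (adjusted p = 0.0296) and was at 0.09 in BV+ cells (adjusted p = 0.655, edgeR).

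**Figure D4:**
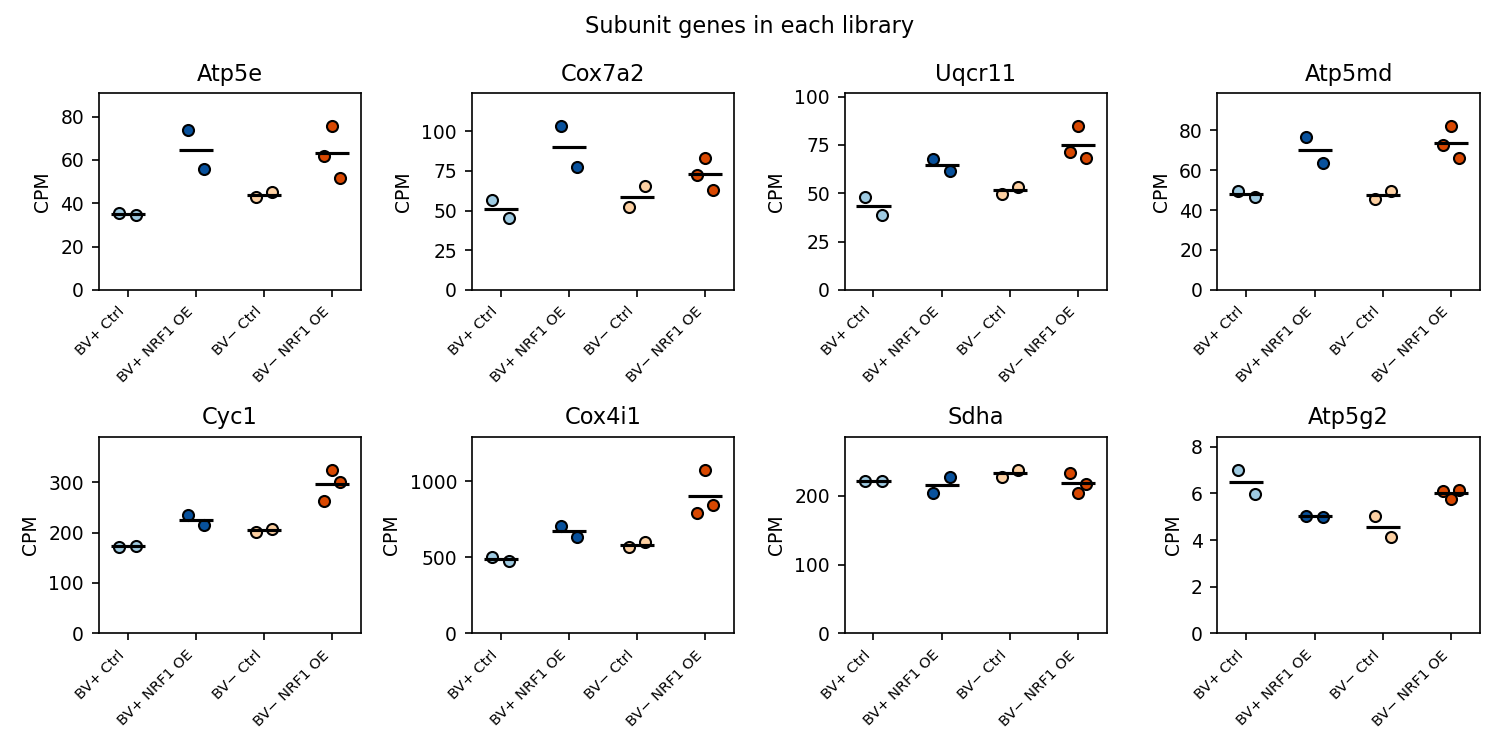
CPM (vertical axes, from 0) of 8 members in each library (points) with the group means (lines), in the 4 groups. Atp5e, Cox7a2, Uqcr11, Atp5md, Cyc1 and Cox4i1 had higher means with NRF1 OE in both populations, Sdha did not, and Atp5g2 lay on opposite sides of Ctrl in BV+ and BV− cells, though not with the offsets for GC content and length.

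The difference between the NRF1 OE effects of the populations passed the test for 0 of 48 members and 0% of all genes in edgeR. DESeq2 called 0 members and 0.136% of all genes. At an unadjusted p under 0.05, 1 member differed (2.08%), against 5.51% of all genes. This was Atp5g2, with 5.05 and 5.01 CPM with NRF1 OE against 7.01 and 5.98 CPM with Ctrl in BV+ cells and 6.08, 5.75 and 6.16 CPM with NRF1 OE against 5.04 and 4.11 CPM with Ctrl in BV− cells. Its difference of -0.76 ± 0.27 (SE) had an adjusted p of 0.730 (edgeR). With offsets for GC content and length its log2 fold changes were -0.77 in BV+ (adjusted p = 0.0352) and -0.07 in BV− cells (adjusted p = 0.869). Both values were then negative, and only that in BV+ cells was called. A positive value in both populations was found for 41 of 48 members (85.4%), against 41.4% of all genes, and the comparisons share no libraries.

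Between the populations with NRF1 OE, the median log2 difference of BV+ from BV− cells was -0.12 over the members and -0.00492 over all genes. It was -0.0516 and -0.0599 with offsets for GC content and length (described below), and -0.0151 and -0.0182 without replicate 2 of BV+ cells. The members were therefore not lower than all genes under every setting. Without replicate 2 of BV− cells the medians were -0.0267 and 0.00648, and the members were lower there. In all, 3 members were lower (6.25%), against 3.85% of all genes, and 0 higher, against 9.9%, at an adjusted p under 0.05. Cyc1 had 235 and 215 CPM in BV+ and 262, 325 and 301 CPM in BV− cells (log2 fold change -0.39 ± 0.11 (SE), adjusted p = 0.0339). Uqcrc1 had 317 and 267 and 342, 439.5 and 385 CPM (log2 fold change -0.41 ± 0.12 (SE), adjusted p = 0.0443), and Cox4i1 had 707 and 634 and 793, 1076 and 846 CPM (log2 fold change -0.43 ± 0.13 (SE), adjusted p = 0.0451). The groups did not overlap in these genes. Over fits that leave out a library, the log2 fold change was -0.52 to -0.25 for Cox4i1. It was -0.47 to -0.29 for Cyc1 and -0.54 to -0.28 for Uqcrc1. The 3 calls were lost without either BV+ NRF1 OE library, without replicate 3 of BV− cells with NRF1 OE, and without any one Ctrl library, where 4.46% to 10.3% of all genes were called. The count was 7 (6 lower) without replicate 1 of BV− cells with NRF1 OE, or 14.6% of the members against 18.8% of all genes, and 1 without replicate 2, where that member was higher, against 14.8%. Every BV+ library was below every BV− library for 13 members (27.1%), against 19.5% of all genes, and above for Atp5j and Atp5pb (4.17%), against 20.3%.

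With Ctrl, 0 members differed between BV+ and BV− cells at an adjusted p under 0.05, against 1.1% of all genes higher and 0.0237% lower. At an unadjusted p under 0.05 there were 2 (4.17%), against 7.77% of all genes, and DESeq2 called 0, against 1.79%. Both BV+ libraries were below both BV− libraries for 24 of 48 members (50.0%), against 25.4% of all genes, and above for 5 (10.4%), against 22.6%. The median log2 difference was -0.12 over the members and -0.01 over all genes, and -0.0591 and -0.0250 with offsets for GC content and length, and -0.0763 and -0.0144 without replicate 2 of BV+ cells with Ctrl. These comparisons share libraries with those of NRF1 OE.

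With the thresholds that the study used (p before adjustment under 0.05, and a log2 fold change beyond 0.58 in size), here applied to edgeR's values, whereas the study used DESeq2, 4 members were higher in BV+ cells with NRF1 OE (Atp5e, Cox6b1, Cox6c2 and Cox7a2; 8.33%), against 9.78% of all genes, and 0 lower, against 7.2%. In BV− cells, 4 were higher (Atp5d, Atp5md, Cox4i1 and Uqcrc1; 8.33%), against 5.73%, and Cox8c was lower (2.08%), against 10.3%. With this rule the share of members that were higher was below the background in BV+ cells and above it in BV− cells. Most members changed by less than its minimum in both populations, and the cause of the difference was not tested.

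GC content moved with NRF1 OE and is given beside these results. Spearman's rho between the GC content of a gene's transcripts and how far a library lay from the average library, across 16662 genes, which are not independent replicates, was -0.490 and -0.495 (BV+) and -0.505 and -0.411 (BV−) in the Ctrl libraries. The NRF1 OE libraries had values of 0.297 and 0.0328 (BV+) and of 0.0178, 0.613 and 0.460 (BV−). The tested members had a median GC content of 49.3%, against 50.7% of all genes tested, and a median length of 1630.1 bases, against 3854 bases. Across the 48 members, which share libraries, rho between GC content and the log2 fold change was 0.388 in BV+ and 0.529 in BV− cells.

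With offsets for the trend of each library over GC content and length, the median log2 fold change of the members fell to 0.23 in BV+ and 0.21 in BV− cells. That of all genes was then -0.0237 and -0.0192. Across the 48 members, rho with GC content was then -0.467 and -0.685, so the offsets turned its sign. In this fit 10 members were higher and 1 lower in BV+ cells, against 6.27% and 5.45% of all genes, and 12 were higher and 1 lower in BV− cells, against 3.61% and 2.69%, at an adjusted p under 0.05 in edgeR.

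Of the 6 members called in BV+ cells with TMM scaling, 4 were also called with the offsets. Cox7a2 was at 0.83 on the log2 scale (adjusted p = 0.0127) and Atp5e at 0.52 (adjusted p = 0.0234), and Atp5md and Atp5j2 were the others. Uqcr11 was at 0.04 (adjusted p = 0.814) and Atp5d at 0.10 (adjusted p = 0.398), so both calls were lost. Of the 20 members called in BV− cells, 7 were also called with the offsets (Atp5b, Atp5c1, Atp5g1, Atp5md, Cox7a2l, Cox8c and Uqcrc1), with Atp5md at 0.94 and Uqcrc1 at 0.35 (adjusted p = 0.0296 and 0.0306). The other 13 were lost. Atp5d was at 0.12 (adjusted p = 0.293), Cyc1 at 0.05 (adjusted p = 0.688), Cox4i1 at 0.21 (adjusted p = 0.0778), Sdhb at 0.16 (adjusted p = 0.203) and Cox6b1 at 0.15 (adjusted p = 0.327). Uqcr11, Cox5b and Cox8a had -0.07, -0.05 and -0.23, whereas Atp5j2, Atp5mpl, Atp5o, Uqcrfs1 and Uqcrh lay between 0.22 and 0.41, with adjusted p from 0.0514 to 0.0753. A further 6 members were called in BV− cells with the offsets alone, among them Cycs at 0.55 (adjusted p = 0.0296) and Atp5pb at 0.36 (adjusted p = 0.0496), and 7 in BV+ cells, among them Atp5pb at 0.50 (adjusted p = 0.0150) and Atp5g2, the member that was lower. The part of GC content and length in the members' changes was not tested further.

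**Figure D5:**
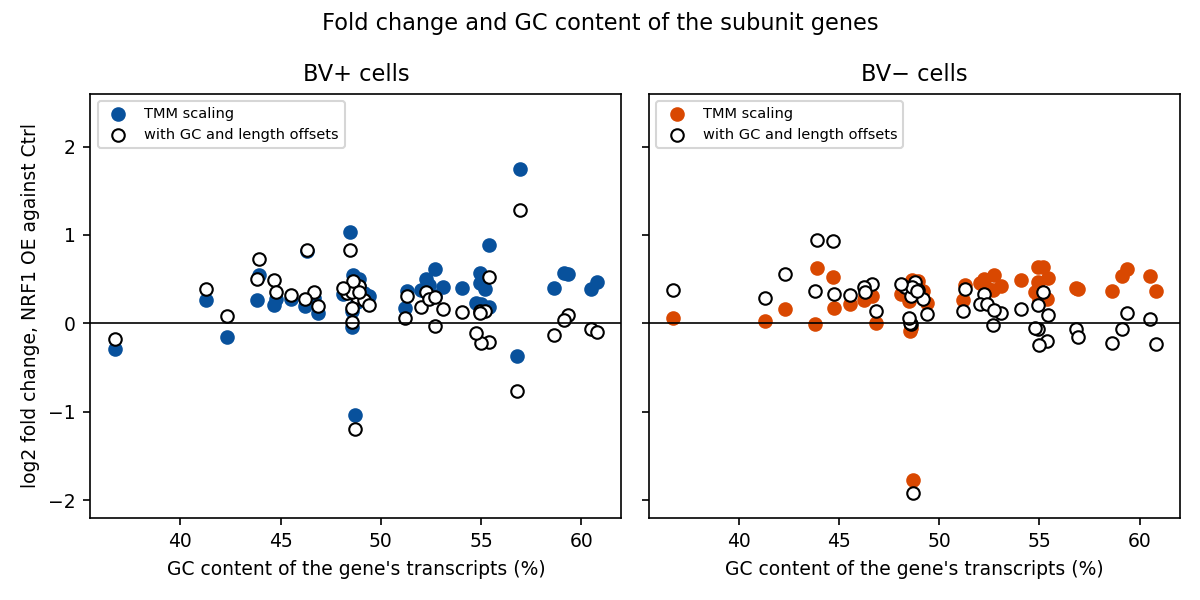
Log2 fold change between NRF1 OE and Ctrl (vertical axis) against the GC content of the gene's transcripts (horizontal axis, %) for the 48 tested members in BV+ (left) and BV− cells (right), with TMM scaling (filled) and with offsets for GC content and length (open). The members rich in GC moved down with the offsets, some of them past 0, while those poor in GC stayed or moved up.

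Members with and without the NRF1-like motif differed little in their medians. In BV+ cells the median log2 fold change was 0.34 in the 13 members with GCGCANGCG and 0.36 in the 23 tested members whose windows lacked it. In BV− cells the medians were 0.39 and 0.37. Calls in BV− cells were made for 4 of the 13 members with the motif and for 12 of the 23 without it, against 17.2% of all genes, and in BV+ cells for 1 of 13 and 5 of 23, against 8.02%. Of the sequences shown above, those of Uqcr11, Uqcrc1, Atp5c1 and Atp5o belong to genes that rose in BV− cells with TMM scaling. Those of Sdha and Cycs belong to genes that did not pass the test with this scaling. With the offsets for GC content and length, Uqcrc1, Atp5c1 and Cycs were called in BV− cells, and Uqcr11, Atp5o and Sdha were not. For CCGGAAG, the medians with and without it were 0.47 and 0.27 in BV+ cells, and 0.49 and 0.35 in BV− cells. These medians are descriptions with no test.

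Assembly factors build these complexes without staying in them. Of 43 listed, 40 were in the tables and 39 were tested. In BV+ cells 3 rose with NRF1 OE (Tmem242, Higd2a and Coa3; 3 of 39, against 6.24% of all genes) and Ttc19 fell (1 of 39, against 1.78%). Tmem242, which takes part in the assembly of ATP synthase, had 61.3 and 50.2 CPM with NRF1 OE against 35.3 and 37.1 CPM with Ctrl (log2 fold change 0.62 ± 0.14 (SE), adjusted p = 0.0312). Ttc19, a complex III factor, had 19.4 and 21.9 CPM with NRF1 OE against 30.5 and 28.5 CPM with Ctrl (log2 fold change -0.51 ± 0.14 (SE), adjusted p = 0.0482). In BV− cells 7 rose (Bcs1l, Coa3, Coa4, Cox14, Fmc1, Higd2a and Surf1; 7 of 39, against 10.2%) and 0 fell, against 6.98%. Higd2a had 30.0, 36.6 and 29.8 CPM with NRF1 OE against 21.7 and 22.0 CPM with Ctrl (log2 fold change 0.55 ± 0.14 (SE), adjusted p = 0.0338). The median log2 fold change of the tested factors was 0.27 in BV+ and 0.29 in BV− cells.

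The 6 subunits of complexes III to V encoded by the mitochondrial genome were not called between NRF1 OE and Ctrl in either population. In BV+ cells all 6 had positive log2 fold changes, from 0.07 to 0.88, with a lowest adjusted p of 0.0635 (edgeR). In BV− cells 2 were positive, and the values ran from -0.37 to 0.39. mt-Cytb, the cytochrome b of complex III, had 7913 and 5696 CPM in BV+ and 5318, 3801 and 4628 CPM in BV− cells with NRF1 OE (log2 fold change 0.57 ± 0.17 (SE), adjusted p = 0.0441). In that comparison of the populations, 1 of the 6 was higher and 0 were lower, against 9.9% and 3.85% of all genes. Poly(A) selection captures mitochondrial transcripts unevenly, so their levels are not compared with those of nuclear genes.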

How the data were processed

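RNA-seq of 9 libraries in 4 groups was analysed from the deposited tables. The authors trimmed reads with Cutadapt, aligned them with HISAT2 2.0.1 (GRCm39, versions per the submitters' processing notes) and used HTSeq 0.6.1 to count reads per Ensembl gene. The authors deposited a raw count per gene and FPKM made from the same counts. Whether strand was used is not given in the sources used here. FPKM served only to compare levels between genes. Groups came from the sample titles, and 0 of the 18 value columns matched no sample.

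Counts were tested in R 4.3.3 with edgeR 4.0.16 (filterByExpr, TMM, quasi-likelihood F test, one term per group, two-sided), and p-values were adjusted over the 16903 genes tested. Log2 fold changes came from this fit with edgeR's default prior count. A prior count of 2 was used only for the log2 CPM behind the libraries' deviations and their trends over GC content and length. Totals of 13702162 to 19625460 counts per library set the precision, and with 2 or 3 libraries a group the spread rests mainly on what is shared across genes. GC content came from GENCODE transcripts on GRCm38 and length from counts and FPKM. On simulated BV+ counts with known changes and on a simulated GC trend, the procedures were tested beforehand. Alternatives were DESeq2 1.42.0, other scalings and filters, only the groups compared, offsets for GC content and length (mgcv 1.9.3), the replicate number as a block and each library left out. Named members were those past the threshold in any comparison, the highest of each complex by FPKM, and Cycs, Cox7a2 and Atp5e, with others named by their values. The members and lists were chosen with earlier results of these data known.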

Additional observations from a re-analysis of the deposited data

How the results depend on the processing

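The direction of the members' median in each NRF1 OE comparison held under all alternatives run, but the number of members called moved with most. The share of all genes called moved too and is given in brackets. In BV+ cells 6 members were called (8.02% of all genes), against 16 with DESeq2 (12.5%), 2 with upper-quartile factors (7.62%) or library size alone (5.94%), 13 without a filter (10.4%), 15 with a mean of 10 counts (11.7%), 22 in a fit of only the groups compared (26.8%) and 11 with GC and length offsets (11.7%). In BV− cells 20 were called (17.2%), against 0 in a fit of only the groups compared (0%) and 13 with GC and length offsets (6.29%). Between BV+ and BV− cells with NRF1 OE, 3 were called (13.8%), against 1 with library size alone (13.3%) or a mean of 10 counts (13.5%), 0 in a fit of only the groups compared (7.8%) and 8 with GC and length offsets (23.2%). Between BV+ and BV− cells with Ctrl, 0 were called (1.12%), against 3 in a fit of only the groups compared (5.52%). The cause was not tested. Leaving out each library in turn gave 0 to 27 members in BV+ cells (0% to 29.4% of all genes), 0 to 27 in BV− cells (0% to 34.6%) and 0 to 7 between the populations with NRF1 OE (4.46% to 18.8%).

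With the replicate number as a block (replicate block), 0 members were called in any comparison, against 0.0177% of all genes in BV+ cells, 0% in BV− cells and 6.29% between the populations with NRF1 OE, and with GC and length offsets beside the replicate block the counts were 4 in BV+ cells (5.68% of all genes), 0 in BV− cells (0.166%) and 5 between the populations with NRF1 OE (14.5%). The labels do not say that numbers mark a shared batch. Between NRF1 OE and Ctrl, deviations of same-numbered libraries correlated at −0.0320 in BV+ cells and at 0.204 and 0.243 in BV− cells. Between BV+ and BV− cells they correlated at −0.138 and −0.295 with NRF1 OE and at −0.104 with Ctrl. With the numbers of the 2 Ctrl groups crossed, chosen after seeing the data, 0 members were called between them.

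With the GC and length offsets, 9 of the 48 members changed sign in BV+ cells and 12 in BV− cells. Of the members chosen by the naming rule, those that changed sign, with their values without and with the replicate block, were in BV+ cells Cox5b at −0.11 and −0.11, Cox8a at −0.13 and −0.13, Cyc1 at −0.0687 and −0.0686, Cycs at 0.0858 and 0.0874 and Uqcr10 at −0.0261 and −0.0284, and in BV− cells Cox5b at −0.0526 and −0.0749, Cox8a at −0.23 and −0.27, Uqcr10 at −0.0164 and −0.00910 and Uqcr11 at −0.0680 and −0.0394. The effect of depth was not tested by thinning the counts. The lowest isoforms had under 20 counts in a library.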
